A study of Rattus norvegicus with 172 samples.

Results

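The 10 genes described here encode enzymes and a cofactor that write, remove or act beside DNA methylation and repressive chromatin marks: Dnmt1, Dnmt3a, Dnmt3b, Uhrf1, Tet1, Tet2, Tet3, Ezh2, Hdac1 and Hdac2. They were chosen by symbol, with earlier results of these data known. Each symbol matched 1 Ensembl ID, and all 10 of 10 were found among the 32883 genes of each count table. The study compared the liver transcriptome of male Fischer 344 rats given furan with that of rats given 3-methylfuran, furan with a methyl group on its ring, for 90 days. Furan was given at 0.03, 0.12, 0.5 or 2.0 mg/kg body weight daily (8, 8, 7 and 7 rats), with 8 rats on the control diet. For 3-methylfuran the daily doses were 0.02, 0.075 and 1.0 mg/kg (8 rats per dose), with another 8 controls. Poly(A) RNA of whole liver was sequenced, with a different library kit for each compound, so that compound and kit cannot be told apart in any comparison between the experiments. The labels name a diet for each group and no age.

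DNA methylation in mammals is copied at each round of replication by DNMT1, which UHRF1 brings to hemimethylated CpG sites. DNMT3A and DNMT3B place methylation at sites that had none, and the TET enzymes oxidise methylcytosine, the first step of its removal. EZH2 is the catalytic subunit of Polycomb repressive complex 2, which methylates histone H3 on lysine 27, and HDAC1 and HDAC2 are closely related histone deacetylases that share several corepressor complexes. In adult liver most hepatocytes are quiescent, and Uhrf1 and Ezh2 are textbook genes of cycling cells, whereas the TET and HDAC genes are transcribed in resting cells too.

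Because E2F factors drive many replication genes, the promoters of the members were searched for 4 words of the E2F type on either strand, TTTCCCGC, TTTCGCGC, TTTGCCGC and TTTGGCGC. Sequences came from RefSeq (build GRCr8) and ran from 250 bases before to 50 bases after each gene start. One or more of these words occurred in 2.14% of all 33469 such promoters. This share is counted per promoter entry, and a gene can have several, up to 4 among the members (Tet3). Of the members, 9 had an entry, Dnmt3b had none, and 3 held a match, namely Dnmt1, Uhrf1 (in 1 of its 3 entries) and Ezh2. The Uhrf1 promoter held 2 matches and is shown because Uhrf1 was the member with the largest change below, with the 250 bases before the start at chr9:1222936-1223185, plus strand, and the words in capitals.
Uhrf1: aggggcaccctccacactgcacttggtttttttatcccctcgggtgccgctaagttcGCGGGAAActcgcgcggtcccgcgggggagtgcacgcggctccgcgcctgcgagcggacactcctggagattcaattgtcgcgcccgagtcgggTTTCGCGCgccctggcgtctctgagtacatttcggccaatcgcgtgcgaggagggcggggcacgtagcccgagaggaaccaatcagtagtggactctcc
The other matches are shown as 30 bases around the word, beside those of Mcm3, a subunit of the replicative helicase that follows replication. The word lies on the opposite strand in Dnmt1 (chr8:27762798-27762827, minus strand) and on the same strand as the gene in Ezh2 (chr4:77687156-77687185, minus strand). Mcm3 holds TTTCCCGC on the opposite strand (chr9:30733734-30733763, minus strand) and TTTCGCGC on its own strand (chr9:30733715-30733744, minus strand).
Dnmt1: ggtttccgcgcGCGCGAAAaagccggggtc
Ezh2: gggctgctgcgTTTGGCGCtcggtccggtc
Mcm3, first word: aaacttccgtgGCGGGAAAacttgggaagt
Mcm3, second word: acttgggaagtTTTCGCGCcagggaggagt
No match was found in these windows of Mki67, Top2a and Pcna. A match is a run of letters, and binding was not measured.

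Total counts per rat were 11.4 to 27.7 M in the furan experiment and 11.1 to 50 M in the 3-methylfuran experiment. Depth went with group there, with a median of 24.2 M at 3-methylfuran 0.075 beside 13.7 to 16.8 M in the other groups of that experiment. Levels below are CPM, counts relative to library size, scaled by TMM, which sets the bulk of genes equal between libraries, so each change is relative to the bulk of the transcriptome. TMM factors were higher at the highest doses than in every control, 1.02 to 1.41 at furan 2.0 beside 0.894 to 0.964, and 1.05 to 1.23 at 3-methylfuran 1.0 beside 0.919 to 0.975. Under scaling by library size alone, the median log2 change of all genes moved from 0.02 to 0.42 at furan 2.0 and from -0.00 to 0.25 at 3-methylfuran 1.0, and the share of called genes that were higher moved from 51.6% to 91.8% and from 48.5% to 86.8%. Changes were tested with the edgeR quasi-likelihood F test, adjusted over all genes tested, and those with an adjusted p under 0.05 are termed called. The whole liver was sampled, so fewer cells of a type and less RNA per cell cannot be told apart.

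The highest doses also moved cell type markers, and these values stand beside every change below. At furan 2.0, 7 of 8 hepatocyte markers fell and 1 rose, with a summed level of 112200 to 171500 CPM beside 185000 to 210300 in the controls (2 lower and 1 higher under library size alone). There, 6 of 8 cholangiocyte markers rose and 1 fell (summed level 40.5 to 98.2 beside 34.9 to 44.3 CPM), and 5 of 8 stellate and fibroblast markers rose and 1 fell (193 to 902 beside 188 to 334 CPM). At 3-methylfuran 1.0, 5 of 8 hepatocyte markers fell and 1 rose (174600 to 226100 beside 207300 to 231300 CPM, and 1 lower and 2 higher under library size alone), 1 of 4 cholangiocyte markers tested rose and 1 fell (38.2 to 51.9 beside 29 to 37.5 CPM), and none of 7 stellate markers was called. Macrophage markers rose in 2 of 9 and 1 of 8, and endothelial markers fell in 2 of 6 and 1 of 6 (none under library size alone). T and NK cell markers rose in 1 of 6 and 1 of 5, and B and plasma cell markers in 0 of 2 and 0 of 1. No marker of the hepatocyte, cholangiocyte or macrophage lists was at 0 counts in any group. The stellate marker Col1a2 was at 0 at 3-methylfuran 0.02. Klrb1, of the T and NK list, was at 0 at furan 0.5, in the 3-methylfuran controls and at 3-methylfuran 0.02. Under library size alone, 7 of 8 cholangiocyte and 7 of 8 stellate markers were higher at furan 2.0, and none lower. At 3-methylfuran 1.0 these were 1 of 4 and 2 of 7, again with none lower. Macrophage markers were then higher in 5 of 9 and 3 of 8, and endothelial markers in 0 of 6 and 1 of 6. T and NK cell markers were higher in 4 of 6 and 1 of 5, and B and plasma cell markers in 1 of 2 and 0 of 1. The part of these cell types in the changes of the 10 genes was not tested.

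At the highest doses, 7 of the 10 genes changed under furan and 6 under 3-methylfuran. Of these, 5 moved the same way under both compounds: Uhrf1, Dnmt1 and Hdac1 were higher, and Hdac2 and Tet3 were lower, both relative to the bulk of genes only, since under library size alone Tet3 was at 0.11 and -0.05 and Hdac2 at -0.04 and -0.07 (log2), none called. Uhrf1 rose more than 4-fold, and the other called changes were all smaller than 1.5-fold. At furan 2.0, 3 genes were called higher and 4 lower of 9 tested, beside 24% and 22.5% of all 12727 genes tested. At 3-methylfuran 1.0, 4 were higher and 2 lower, beside 21.2% and 22.5% of 11930 genes. Under library size alone, 5 members were higher and 0 lower at each of these doses. That scaling called 9451 of 12727 genes at furan 2.0, 91.8% of them higher. At 3-methylfuran 1.0 it called 7004 of 11930 genes, 86.8% of them higher. The median log2 change of the 9 members was -0.05 and 0.10, beside 0.02 and -0.00 over all genes.

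At lower doses few calls were made. None of 9 members was called at furan 0.03 (background 0.0707% of genes called either way) or at furan 0.12 (1.94%), where 2 and 1 members had an unadjusted p under 0.05. At furan 0.5, Tet3 alone was called lower, beside 1.66% of all genes. None was called at 3-methylfuran 0.02 (0.0335%) or 0.075 (1.37%), where 1 and 0 members had an unadjusted p under 0.05. The share of all genes with an unadjusted p under 0.05 was not counted. DESeq2 called 0 members at furan 0.03 (49 of 12727 genes called) and 1 at furan 0.12 (368 genes). It called 0 members at 3-methylfuran 0.02 (18 of 11930 genes) and 0.075 (283 genes). By limma voom 0 members were called at these 4 doses, beside 0, 221, 2 and 196 genes.

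**Figure D1:**
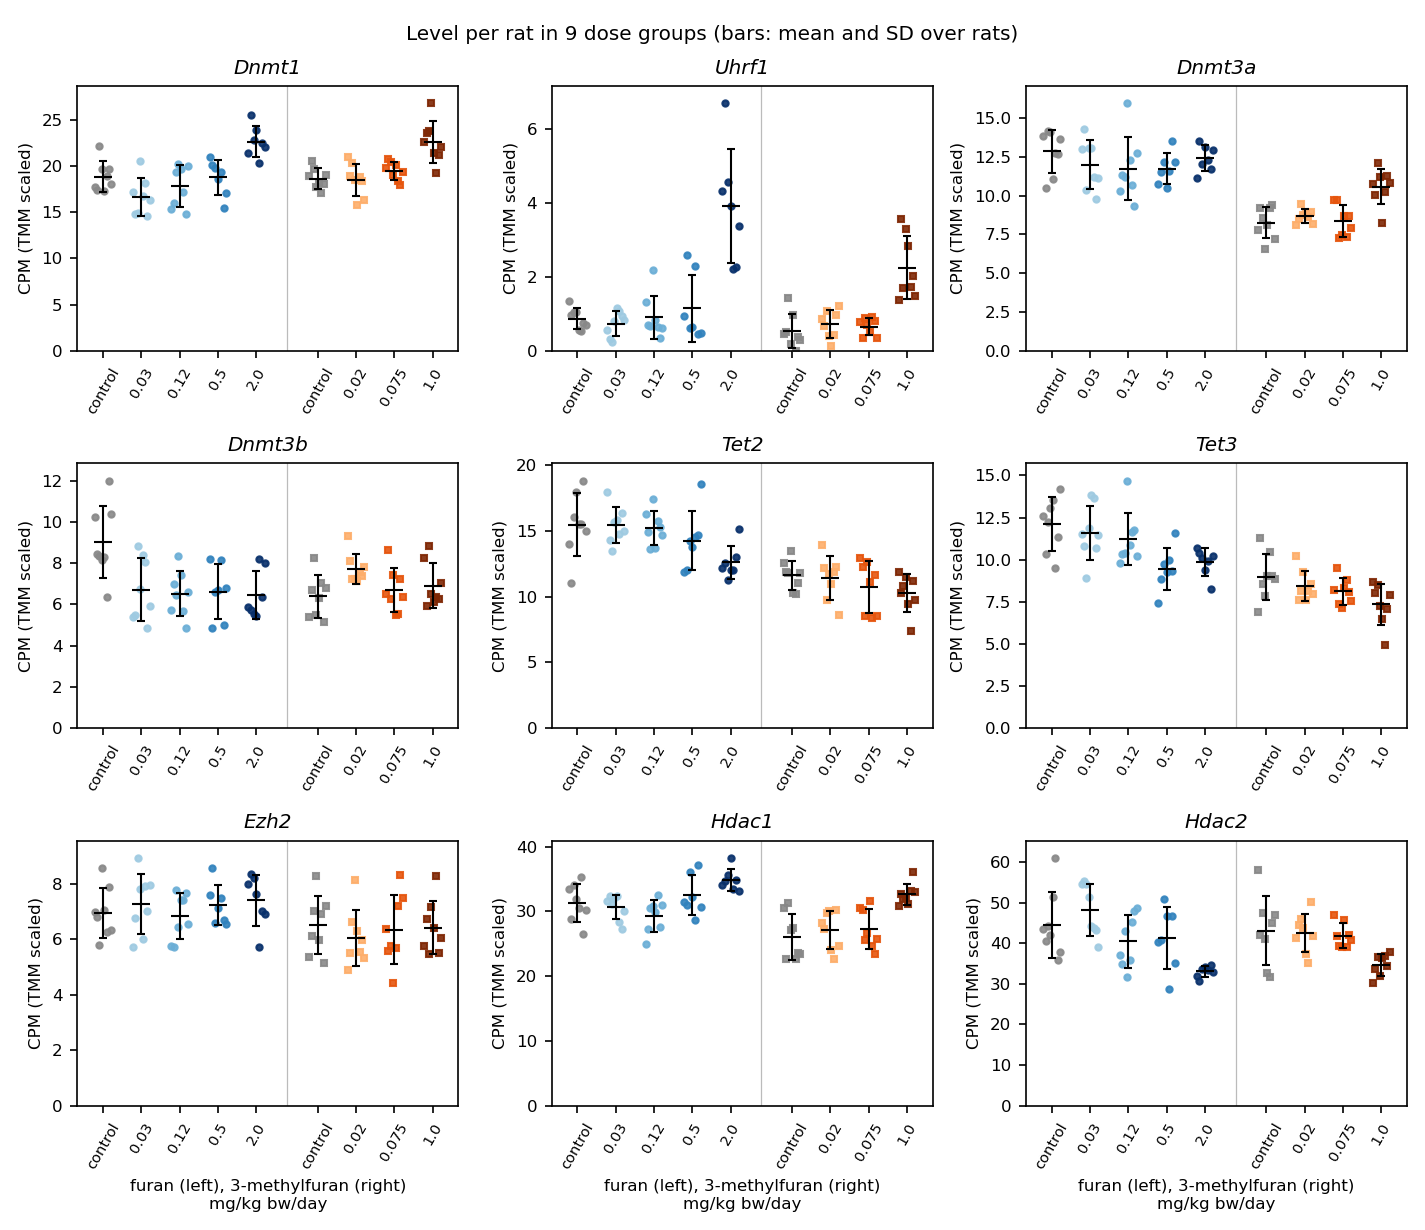
Each panel shows the TMM-scaled CPM of 1 of the 9 tested genes in each rat (Tet1 is not drawn), in the furan groups (left) and the 3-methylfuran groups (right) by dose in mg/kg body weight per day, with bars for mean and SD. Uhrf1 is at 2.20 to 6.70 CPM at furan 2.0 and at 0.53 to 1.34 in its controls, while the ranges of Ezh2 overlap in all groups.

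Uhrf1 (ENSRNOG00000048411), the factor that reads hemimethylated DNA and brings DNMT1 to it, was scarce in control liver. In the furan experiment the lowest, median and highest rats had 0.53, 0.85 and 1.34 CPM in the controls and 0.45, 0.63 and 2.60 CPM at 0.5 mg/kg. At furan 2.0 they had 2.20, 3.92 and 6.70 CPM. All 7 rats at 2.0 were thus above all 8 controls, while 2 of the 7 rats at 0.5 reached the range of the highest dose. The 2 lower furan doses spanned 0.23 to 1.14 CPM at 0.03 and 0.34 to 2.19 CPM at 0.12. The log2 change at furan 2.0 was 2.17 ± 0.34 (SE), a 4.51-fold rise (edgeR quasi-likelihood adjusted p = 3.13e-06).

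In the 3-methylfuran experiment Uhrf1 had 0, 0.42 and 1.42 CPM in the controls, where 1 rat had no count. It had 0.12, 0.76 and 1.21 CPM at 0.02, 0.34, 0.73 and 0.90 CPM at 0.075, and 1.39, 1.88 and 3.57 CPM at 1.0. All 8 rats at 1.0 were above the control mean, and 1 control rat overlapped with the lowest of them. The fit gave a log2 change of 2.10 ± 0.36, a 4.29-fold rise (edgeR adjusted p = 1.36e-05). The step between the upper doses was also called, with 1.76 ± 0.35 for furan 2.0 against 0.5 (adjusted p = 0.00017) and 1.75 ± 0.32 for 3-methylfuran 1.0 against 0.075 (adjusted p = 4e-05), where the groups did not overlap. These levels rest on few reads, 7 to 21 counts per rat in the furan controls and 0 to 19 in those of 3-methylfuran. In all, 27 of 38 and 19 of 32 rats exceeded the level of 0.613 and 0.672 CPM used by the filter on low counts. Among the controls these were 6 of 8 under furan and 2 of 8 under 3-methylfuran, and at the highest dose all 7 and all 8 rats. Uhrf1 passed the filter also with the highest dose left out.

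Dnmt1 (ENSRNOG00000039859), the maintenance methyltransferase that UHRF1 serves, rose less. Its lowest, median and highest values were 17.3, 18.5 and 22.2 CPM in the furan controls and 20.4, 22.5 and 25.6 CPM at furan 2.0. In the 3-methylfuran experiment they were 17.1, 18.6 and 20.5 CPM in the controls and 19.3, 22.4 and 26.8 CPM at 1.0. The ranges overlapped in both experiments, but each of the 7 and 8 rats at the highest dose lay above its control mean. The log2 change was 0.26 ± 0.08 at furan 2.0 (edgeR adjusted p = 0.00445) and 0.28 ± 0.06 at 3-methylfuran 1.0 (adjusted p = 0.00036), and 0.67 and 0.53 under library size alone. Group medians at the other doses lay between 16.6 and 19.6 CPM. Against the dose below, Dnmt1 was higher by 0.27 ± 0.08 at furan 2.0 (adjusted p = 0.00712) and by 0.22 ± 0.06 at 3-methylfuran 1.0 (adjusted p = 0.00435).

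Of the de novo methyltransferases, Dnmt3a (ENSRNOG00000026649) changed under 3-methylfuran and was not called under furan. Its lowest, median and highest values were 6.58, 8.34 and 9.42 CPM in the 3-methylfuran controls, and 8.23, 10.8 and 12.1 CPM at 1.0, with 7 of 8 rats above the control mean. This was a log2 change of 0.35 ± 0.08 (edgeR adjusted p = 0.000525), and 0.34 ± 0.08 against the 0.075 dose (adjusted p = 0.000759). From the first sequencing run alone the change against controls was 0.16 (adjusted p = 0.364). In the furan experiment the values were 10.5, 13.2 and 14.2 CPM in the controls and 11.2, 12.3 and 13.5 CPM at 2.0, 1 range inside the other. The change was -0.05 ± 0.09 (adjusted p = 0.652), and 0.35 (adjusted p = 0.0038) under library size alone.

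Dnmt3b (ENSRNOG00000010625) fell under furan relative to the bulk of genes. Its lowest, median and highest values were 6.38, 8.41 and 12 CPM in the controls and 5.44, 5.87 and 8.21 CPM at furan 2.0. The ranges overlapped, and 0 of 7 rats lay above the control mean. On the log2 scale the change was -0.49 ± 0.14 (edgeR adjusted p = 0.00411), which under library size alone shrank to -0.11 (adjusted p = 0.482). The lower doses had about the same distance from the controls, -0.44 at 0.03, -0.47 at 0.12 and -0.45 at 0.5, with adjusted p-values of 0.229, 0.0611 and 0.0654, and none of their 8, 8 and 7 rats was above the control mean. The 4 dosed groups differed from the controls by a like amount, and furan 2.0 differed from furan 0.5 by -0.03 ± 0.15. The furan controls had 9.03 ± 1.74 CPM (SD, n = 8), beside 6.39 ± 1.05 CPM (n = 8) in the 3-methylfuran controls. In the authors' deposited table, Dnmt3b had an adjusted p of 0.0282 at furan 0.12 and 0.0429 at furan 0.5. In the 3-methylfuran experiment its values were 5.13, 6.52 and 8.27 CPM in the controls and 5.91, 6.43 and 8.85 CPM at 1.0, a change of 0.10 ± 0.10 (adjusted p = 0.442).

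Among the dioxygenases, Tet3 (ENSRNOG00000011387) was lower at the highest dose of both compounds. Its lowest, median and highest values were 9.53, 12.4 and 14.2 CPM in the furan controls, 7.40, 9.31 and 11.6 CPM at 0.5, and 8.23, 10.1 and 10.7 CPM at 2.0. In the 3-methylfuran experiment they were 6.89, 8.94 and 11.3 CPM in the controls and 4.93, 7.56 and 8.69 CPM at 1.0. The ranges overlapped in each case, and none of the 7 and 8 rats at the highest dose lay above its control mean. The log2 change was -0.29 ± 0.09 at furan 2.0 (edgeR adjusted p = 0.00936) and -0.30 ± 0.10 at 3-methylfuran 1.0 (adjusted p = 0.0136), which under library size alone became 0.11 (adjusted p = 0.386) and -0.05 (adjusted p = 0.716). From the first run alone the 3-methylfuran change was -0.25 (adjusted p = 0.17). At furan 0.5 it was -0.36 ± 0.10 (adjusted p = 0.029), which in a fit of those 2 groups alone had an adjusted p of 0.0673.

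Tet2 (ENSRNOG00000023579), a dioxygenase best known from blood cells, had 11, 15.5 and 18.8 CPM in the furan controls and 11.3, 12.2 and 15.2 CPM at furan 2.0. None of the 7 rats was above the control mean, and the ranges overlapped. The fitted change was -0.30 ± 0.09 (edgeR adjusted p = 0.00577), and 0.09 (adjusted p = 0.389) under library size alone. At 3-methylfuran 1.0 the values were 7.37, 10.5 and 11.9 CPM beside 10.2, 11.8 and 13.5 CPM in the controls, a change of -0.18 ± 0.10 that was not called (adjusted p = 0.173). Tet1 (ENSRNOG00000000277), the dioxygenase of embryonic stem cells, did not pass the filter and was not tested. It had 64 counts in all 38 furan rats and 5 in all 32 rats of the 3-methylfuran experiment, with at most 5 counts in any rat.

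Ezh2 (ENSRNOG00000006048) was called in no comparison with controls. Its lowest, median and highest values were 5.80, 6.88 and 8.56 CPM in the furan controls and 5.72, 7.63 and 8.34 CPM at furan 2.0, and 5.13, 6.51 and 8.27 CPM beside 5.47, 6.21 and 8.29 CPM in the 3-methylfuran experiment. Controls and highest dose covered the same range in both. The log2 change was 0.09 ± 0.10 at furan 2.0 (95% interval -0.10 to 0.29, edgeR adjusted p = 0.458) and -0.02 ± 0.12 at 3-methylfuran 1.0 (-0.25 to 0.22, adjusted p = 0.932). Both intervals end below the lower bound of the Uhrf1 change, 1.48 and 1.37. Under library size alone the changes were 0.50 (adjusted p = 0.000365) and 0.24 (adjusted p = 0.0794).

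The deacetylase genes moved apart. Hdac1 (ENSRNOG00000009568) had 26.4, 31.2 and 35.3 CPM in the furan controls and 33.2, 34.7 and 38.2 CPM at furan 2.0, and 22.6, 25.3 and 31.3 CPM beside 30.9, 32.4 and 36.1 CPM in the 3-methylfuran experiment. All 7 and all 8 rats at the highest dose were above their control mean, and the ranges overlapped, widely under furan and only between the lowest dosed and the highest control rats under 3-methylfuran. The log2 change was 0.15 ± 0.06 at furan 2.0 (edgeR adjusted p = 0.0345) and 0.32 ± 0.08 at 3-methylfuran 1.0 (adjusted p = 0.00059), and 0.55 and 0.57 under library size alone. The furan call was lost in 5 of 15 fits that left out 1 rat, 4 of them controls and 1 at the dose, with an adjusted p of up to 0.103. The counts of Hdac1l, a near copy of Hdac1, had group means of 0.04 to 0.31 CPM.

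Hdac2 (ENSRNOG00000000604) had 35.8, 42.7 and 61.0 CPM in the furan controls and 30.8, 33.5 and 34.5 CPM at furan 2.0, with all 7 rats below all 8 controls. In the 3-methylfuran experiment it had 31.6, 43.5 and 58.0 CPM in the controls and 30.1, 35.3 and 37.9 CPM at 1.0, where the ranges overlapped and no rat was above the control mean. The 7 rats at furan 2.0 lay close together, and the controls spread widely. The log2 change was -0.43 ± 0.11 at furan 2.0 (edgeR adjusted p = 0.00134) and -0.31 ± 0.09 at 3-methylfuran 1.0 (adjusted p = 0.00311), which under library size alone was -0.04 (adjusted p = 0.772) and -0.07 (adjusted p = 0.501). Against the dose below it was -0.32 ± 0.11 under furan (adjusted p = 0.0235) and -0.27 ± 0.09 under 3-methylfuran (adjusted p = 0.0112), there with no overlap.

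The counts of Hdac1 divided by those of Hdac2 in the same rat do not depend on library scaling. This measure was added after both genes had been called in opposite directions at these doses and the effect of scaling had been seen, so it is given as a description. An exact permutation test of the ratio entered only the count of results under alternatives in the last section, and it is no support here. The ratio was 0.58, 0.749 and 0.798 (lowest, median, highest) in the furan controls and 1, 1.06 and 1.13 at furan 2.0. It was 0.496, 0.599 and 0.839 in the 3-methylfuran controls and 0.859, 0.939 and 1.05 at 1.0. In both experiments every rat at the highest dose was above every control. The difference in mean log2 ratio was 0.57 and 0.63. A ratio shows unequal change and does not say which gene moved in absolute amount.

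**Figure D2:**
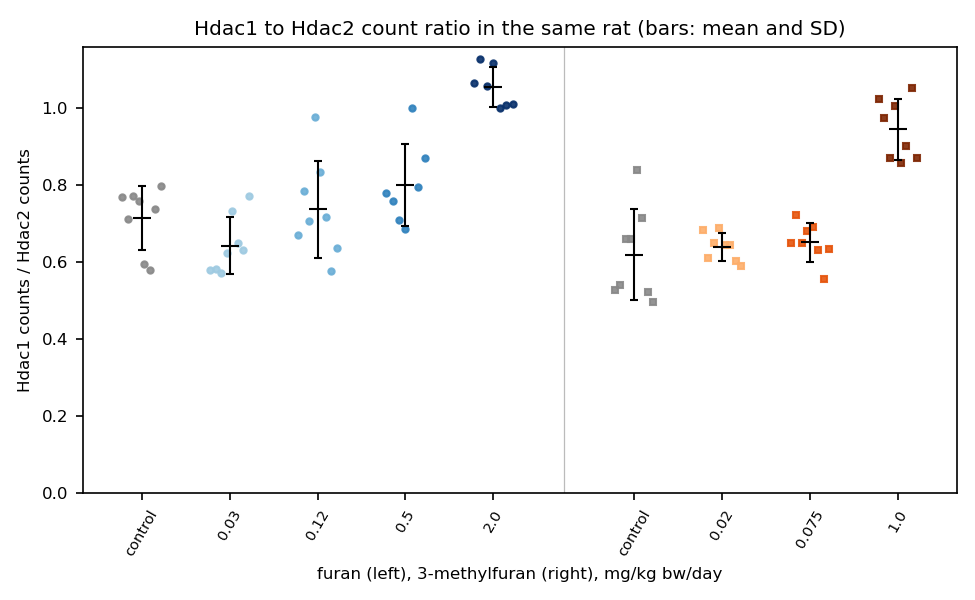
Points give the Hdac1 counts divided by the Hdac2 counts in each rat (vertical axis, no unit) by group, furan on the left and 3-methylfuran on the right, with bars for mean and SD. The rats at furan 2.0 lie between 1 and 1.13 and those at 3-methylfuran 1.0 between 0.859 and 1.05, above all their controls.

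**Figure D3:**
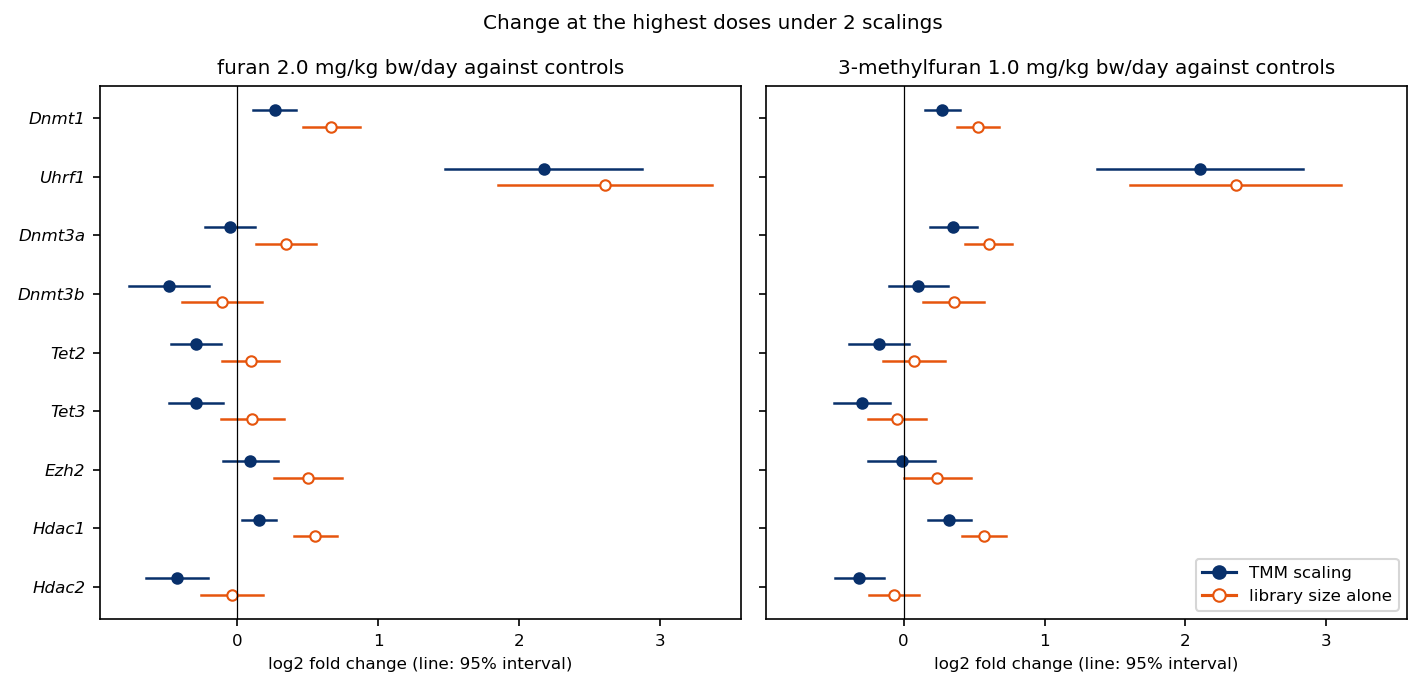
The log2 change of each gene at furan 2.0 and at 3-methylfuran 1.0 against controls, with 95% intervals, is drawn under TMM scaling and under library size alone. Uhrf1, Dnmt1 and Hdac1 are above 0 under both scalings, while Tet2 and Tet3 cross to 0.09 and 0.11 under library size alone at furan 2.0. Library size alone moved the median of all genes up at both doses.

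To ask which of the genes follow proliferation, a score was built per rat as the mean of centred log2 CPM over 37 (furan) or 35 (3-methylfuran) genes of replication and mitosis, none of them a member. At furan 2.0, 17 of 18 replication genes and 18 of 19 mitosis genes rose, and at 3-methylfuran 1.0, 14 of 16 and 18 of 19. Mki67, a marker of cycling cells, rose by 1.88 ± 0.33 and 1.83 ± 0.36 (log2), Top2a, a topoisomerase of mitosis, by 1.48 ± 0.30 and 1.88 ± 0.34, Mcm3 by 1.62 ± 0.28 and 1.70 ± 0.20, and Pcna, the replication clamp, by 0.50 ± 0.08 and 0.35 ± 0.08. The score was -0.25 ± 0.41 (SD, n = 8) in the furan controls and 0.90 ± 0.43 (n = 7) at 2.0. It was -0.39 ± 0.55 (n = 8) in the 3-methylfuran controls and 0.81 ± 0.26 (n = 8) at 1.0. The 2 rats at furan 0.5 with the highest Uhrf1, 2.28 and 2.60 CPM, also had the highest scores of that group, 0.62 and 0.77.

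Within groups, that is with the dose group in the fit, Uhrf1 was the member that rose with the score in both experiments. Its slope was 1.38 ± 0.21 log2 units per unit of score over 38 furan rats (edgeR adjusted p = 1.55e-05) and 1.50 ± 0.29 over 32 rats of the 3-methylfuran experiment (adjusted p = 0.00212). Under TMM it was the only member called higher, beside 8% of all genes called higher under furan and 0.748% under 3-methylfuran. Under library size alone 4 members were called higher under furan, Uhrf1 (1.34), Ezh2 (0.33, edgeR adjusted p = 0.000829), Tet3 (0.27, adjusted p = 0.00386) and Dnmt1 (0.23, adjusted p = 0.00762), and Uhrf1 alone under 3-methylfuran (1.47). That scaling, used for the score too, called 3995 of 12690 genes under furan, 96.5% of them higher, with a median slope of 0.12. Under 3-methylfuran it called 239 of 11895 genes, 93.7% of them higher. Without the 2 rats farthest from the median score of each experiment the Uhrf1 slopes under TMM were 1.43 (edgeR adjusted p = 0.000103) and 1.32 (adjusted p = 0.0287). Pearson r of Uhrf1 with the score within groups was 0.69 and 0.75, where the libraries of an experiment share a kit.

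Hdac2 was called lower with the score under furan, with a slope of -0.29 ± 0.08 (edgeR adjusted p = 0.0116, beside 4.86% of genes called lower), which became -0.11 (adjusted p = 0.303) under library size alone. In the 3-methylfuran experiment its slope was 0.12 ± 0.08. The difference of the slopes was -0.41 ± 0.12 (adjusted p = 0.0972), and 0 of 9 members were called for such a difference, beside 0.0775% of all genes. Ezh2 had a slope of 0.21 ± 0.08 under furan that was not called (adjusted p = 0.0644, and 0.0305 by limma voom), and 0.03 ± 0.11 under 3-methylfuran. Under TMM, slopes of Dnmt1 were 0.09 ± 0.07 and 0.09 ± 0.06, and those of Dnmt3a, Dnmt3b, Tet2, Tet3 and Hdac1 lay between -0.07 and 0.16. Along the score under furan, 6 of 8 cholangiocyte and 7 of 8 stellate markers also rose, and under 3-methylfuran 0 of the 4 and 0 of the 7 tested. Their part in the slopes was not tested.

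**Figure D4:**
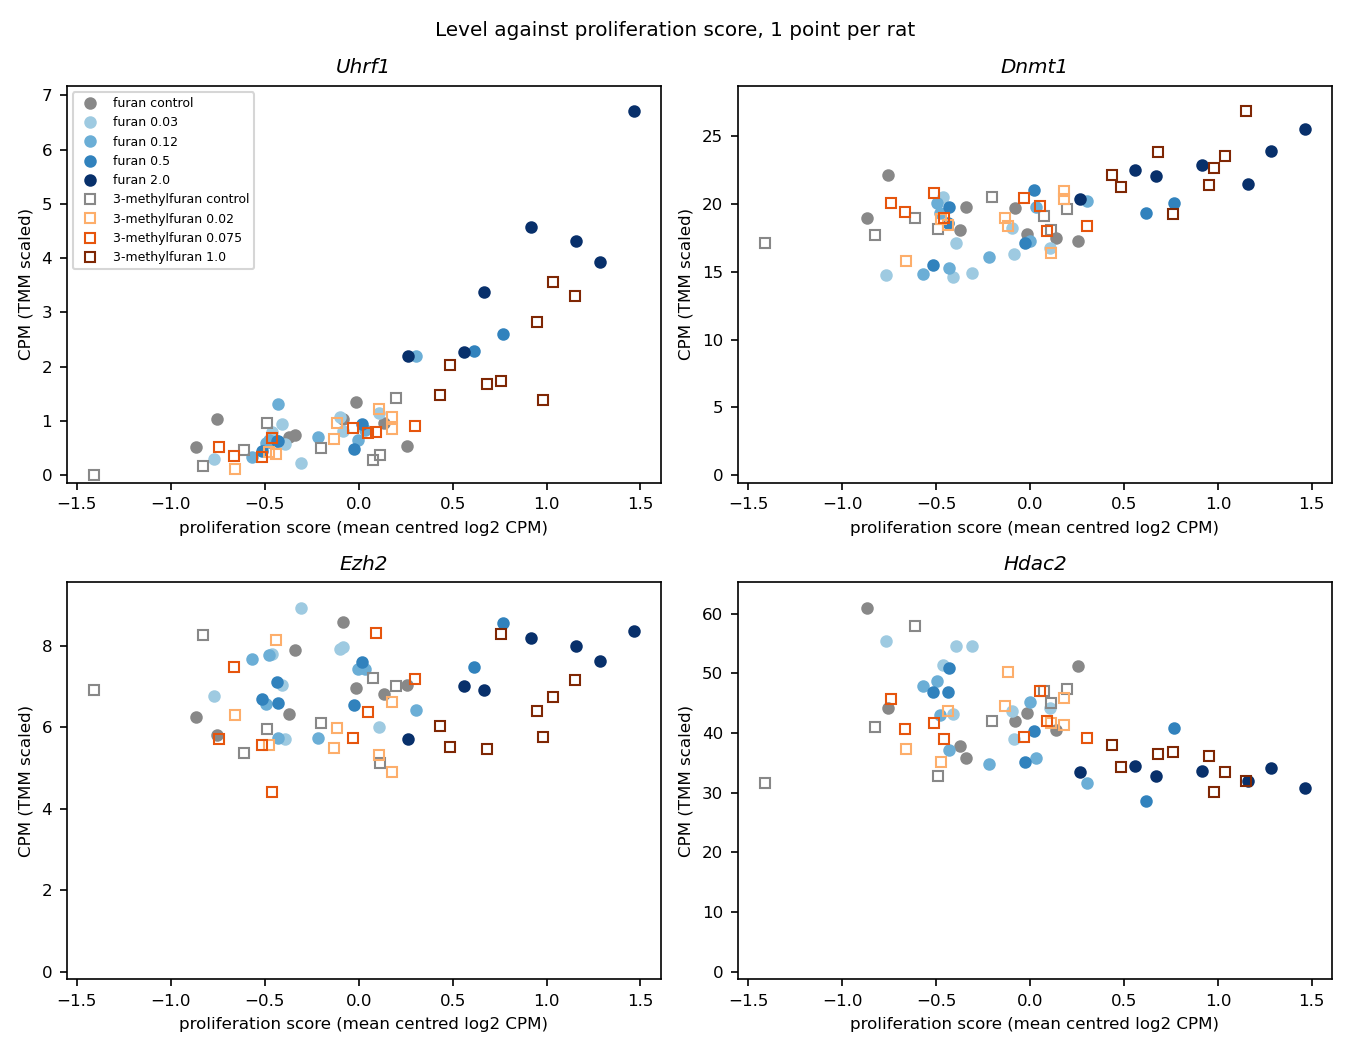
The TMM-scaled CPM of Uhrf1, Dnmt1, Ezh2 and Hdac2 is set against the proliferation score of the same rat (mean centred log2 CPM, centred within each experiment), coloured by dose group, circles for furan and squares for 3-methylfuran. Uhrf1 rises along the score within groups, by 1.38 and 1.50 log2 units per unit of score, while the slope of Ezh2 is 0.21 and 0.03.

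With the score added to the fit of the highest doses, 2 and 3 members were called, and calls over all genes fell from 5923 to 2374 under furan and from 5207 to 2272 under 3-methylfuran. The Uhrf1 change dropped from 2.17 to 0.51 ± 0.34 at furan 2.0 (edgeR adjusted p = 0.317) and from 2.10 to 0.42 ± 0.43 at 3-methylfuran 1.0 (adjusted p = 0.534). The Dnmt1 change dropped to 0.16 in both (adjusted p = 0.335 and 0.221). Tet3 was -0.48 ± 0.13 at furan 2.0 (adjusted p = 0.00735) and -0.33 ± 0.15 at 3-methylfuran 1.0 (adjusted p = 0.126). Dnmt3b under furan (-0.58, adjusted p = 0.0339), Dnmt3a under 3-methylfuran (0.40, adjusted p = 0.0209) and Hdac1 under 3-methylfuran (0.35, adjusted p = 0.0313) were still called. At furan 2.0 Hdac1 was 0.23 (adjusted p = 0.0536) and Tet2 -0.22 (adjusted p = 0.245). Hdac2 was -0.09 (adjusted p = 0.708) at furan 2.0 and -0.46 (adjusted p = 0.00944) at 3-methylfuran 1.0. Dose and score move together across groups, so this fit rests on the rats within groups.

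Genes outside all lists whose levels were most like a member's within groups are given by the mean of Pearson r over the experiments (38 and 32 rats, 11684 genes ranked). For Uhrf1 they were Nuf2 (0.74), Ncaph (0.73) and Kntc1 (0.70), genes of the kinetochore and of condensin. For Dnmt1 they were Hras (0.62), Prrc2a (0.61) and Dnm2 (0.61), where the experiments differed. Their r with Dnmt1 was 0.53, 0.44 and 0.35 under furan and 0.70, 0.79 and 0.88 under 3-methylfuran. For Tet3 they were Kif13b (0.55), Pxdn (0.55) and Stk10 (0.55), and for Hdac1 Slc17a9 (0.64), Fitm2 (0.63) and Birc2 (0.63). For Hdac2 they were Clint1 (0.71), Srpra (0.71) and AC097784.1 (0.71). These correlations share libraries and scaling and are descriptions.

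Between the compounds the doses do not match, so furan 2.0 and 3-methylfuran 1.0 are compared as the difference of their effects over their own controls, in 1 fit of 70 rats. The members called were Dnmt3a, with an effect lower under furan by -0.42 ± 0.12 (edgeR adjusted p = 0.0222), and Dnmt3b, with -0.60 ± 0.18 (adjusted p = 0.0253). These 2 of 9 stood beside 3.72% of all genes called lower, and 0 members were called higher. Neither was called under library size alone (-0.26, adjusted p = 0.189, and -0.46, adjusted p = 0.0685), nor from the first run of each rat alone (-0.23, adjusted p = 0.477, and -0.66, adjusted p = 0.0689). For Uhrf1 the difference was 0.06 with a 95% interval of -1.09 to 1.21, for Dnmt1 -0.02 (-0.22 to 0.18), for Tet3 -0.01 (-0.28 to 0.27), for Hdac1 -0.18 (-0.37 to 0.01) and for Hdac2 -0.12 (-0.40 to 0.16). The step between the upper doses called 2 members higher and 1 lower under furan, beside 15.6% and 16.5% of genes, and 4 higher and 1 lower under 3-methylfuran, beside 16.9% and 18%.

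Partners of these enzymes were followed in 7 lists of chromatin genes, whose TMM counts are read against the 24% of all genes called higher and 22.5% lower at furan 2.0, and 21.2% and 22.5% at 3-methylfuran 1.0. Counts under library size alone are read against 9451 of 12727 genes called at furan 2.0, 91.8% of them higher. At 3-methylfuran 1.0 that scaling called 7004 of 11930 genes, 86.8% of them higher. Among DNA methylation partners, 6 of 15 rose and 2 fell at furan 2.0, and 3 rose and none fell at 3-methylfuran 1.0. Under library size alone, which raised the median of all genes, 13 were higher and 1 lower, and 10 higher and 0 lower. Cdca7, a partner of the remodeller HELLS in DNA methylation, rose from 0.957 ± 0.356 to 2.67 ± 1.03 CPM (SD, n = 8 and 7), a log2 change of 1.47 ± 0.22, and from 0.864 to 2.36 CPM under 3-methylfuran, 1.49 ± 0.24. Mbd4, a glycosylase that repairs deaminated methylcytosine, rose by 0.56 ± 0.14 at furan 2.0. Gadd45g, a stress gene linked to demethylation, fell by 1.94 on the log2 scale at furan 2.0, from 119 ± 44.2 to 31.2 ± 21.2 CPM, and its relative Gadd45a rose by 0.76 ± 0.27 at 3-methylfuran 1.0. Zbtb4, a reader of methylated DNA, was -0.26 ± 0.11 at furan 2.0 and 0.14 under library size alone.

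Of 24 Polycomb genes, 4 rose and 5 fell at furan 2.0, and 5 rose and 4 fell at 3-methylfuran 1.0, which became 19 higher and 1 lower, and 13 higher and 2 lower, under library size alone. The chromobox gene Cbx6 rose by 0.84 ± 0.15 and 0.97 ± 0.15, Rbbp7, a histone chaperone shared with deacetylase complexes, by 0.64 ± 0.06 at furan 2.0, and Bmi1, a subunit of Polycomb complex 1, by 0.68 ± 0.11 at 3-methylfuran 1.0. The EZH2 partners Phf19 and Phf1 fell, by 0.78 and 0.40 on the log2 scale at furan 2.0 and by 0.94 and 0.47 at 3-methylfuran 1.0, although Phf1 was -0.01 at furan 2.0 under library size alone. The effects of the compounds differed for 3 of the 24, named after their values were seen, beside 7.23% of all genes called for a difference either way. There were 2 such genes each among the DNA methylation partners and the histone methyltransferases. The Polycomb values that follow are given under TMM only, and compound and kit cannot be told apart in them. Rbbp4 was 0.26 at furan 2.0 and -0.21 at 3-methylfuran 1.0 (adjusted p of the difference = 0.00365), Kdm6a, a demethylase of H3 lysine 27, was -0.18 and 0.42 (2.53e-05), and Bmi1 was 0.22 and 0.68 (0.0207).

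Of the deacetylase family and its corepressors, 3 of 23 rose and 1 fell at furan 2.0, and 2 of 22 rose and 4 fell at 3-methylfuran 1.0, which became 20 and 14 higher and none lower under library size alone. Named by size of change, Sap30 rose by 0.45 ± 0.15 and Hdac10 by 0.25 ± 0.10 under furan, and Hdac9 by 0.66 ± 0.22 and Hdac3 by 0.18 ± 0.05 under 3-methylfuran. Mta1 under furan (-0.19) and Chd3 (-0.28) and Hdac5 (-0.26) under 3-methylfuran were called lower. Under library size alone Mta1 was called higher instead (0.20, adjusted p = 0.00458), and Chd3 and Hdac5 were at -0.03 and -0.00, not called. Of 8 acetyltransferases 4 rose at furan 2.0 and 2 at 3-methylfuran 1.0, and none fell, and under library size alone 8 and 7 were higher. Hat1, which acetylates new histone H4, rose by 0.33 ± 0.09 and 0.56 ± 0.09, Kat2a by 0.32 ± 0.09 under furan, and Kat7 by 0.18 ± 0.06 under 3-methylfuran.

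Among 23 histone methyltransferases, 8 rose and 5 fell at furan 2.0, and 4 rose and 6 fell at 3-methylfuran 1.0, which became 17 and 9 higher and none lower under library size alone. Setd7, a lysine methyltransferase, rose from 1.16 ± 0.445 to 5 ± 1.28 CPM at furan 2.0, a log2 change of 2.09 ± 0.21, and from 0.362 ± 0.254 to 2.77 ± 1.00 CPM at 3-methylfuran 1.0, a change of 2.85 ± 0.29. Prmt5, an arginine methyltransferase, rose by 0.59 ± 0.06 under furan and Smyd2 by 0.50 ± 0.11 under 3-methylfuran. Kmt2e (-0.34) and Kmt5b (-0.25) under furan, and Setd1b (-0.46) and Kmt2b (-0.28) under 3-methylfuran, were called lower and were not called under library size alone, where the first pair were 0.05 and 0.14.

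Of 15 histone demethylases, 1 rose and 7 fell at each highest dose, and the median log2 change was -0.20 and -0.11, but under library size alone it was 0.19 and 0.13, with 8 higher and 0 lower, and 6 higher and 1 lower. Kdm4a, which acts on H3 lysine 9 and 36, rose by 0.43 ± 0.07 and 0.46 ± 0.07. Jmjd1c was -0.43 and -0.38, Phf2 -0.31 under furan and Kdm4b -0.43 under 3-methylfuran, and only the last kept its call under library size alone, where Phf2 was 0.09. In the methyl donor cycle, which supplies S-adenosylmethionine, 1 of 11 genes rose and 5 fell at furan 2.0, and 1 rose and 6 fell at 3-methylfuran 1.0, with medians of -0.23 and -0.33 that became 0.13 and -0.09 under library size alone, with 5 higher and 4 lower, and 3 higher and 5 lower. Cbs, which draws homocysteine out of the cycle, fell from 372 ± 42.7 to 217 ± 58.1 CPM and from 320 ± 43.9 to 186 ± 24.7 CPM, and Nnmt, which consumes methyl groups on nicotinamide, fell by 0.80 and 0.70 on the log2 scale. Mat2a rose by 0.28 ± 0.11 under furan, and Bhmt, which remethylates homocysteine, by 0.46 ± 0.15 under 3-methylfuran. Of the genes named from the 7 lists and called lower under TMM, 4 of 11 (furan) and 5 of 10 (3-methylfuran) were also called lower under library size alone. All 12 and 12 called higher stayed so, which could hardly come out otherwise, since that scaling moves the bulk of genes up. The tallies for the 2 directions can therefore not be set against each other.

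**Figure D5:**
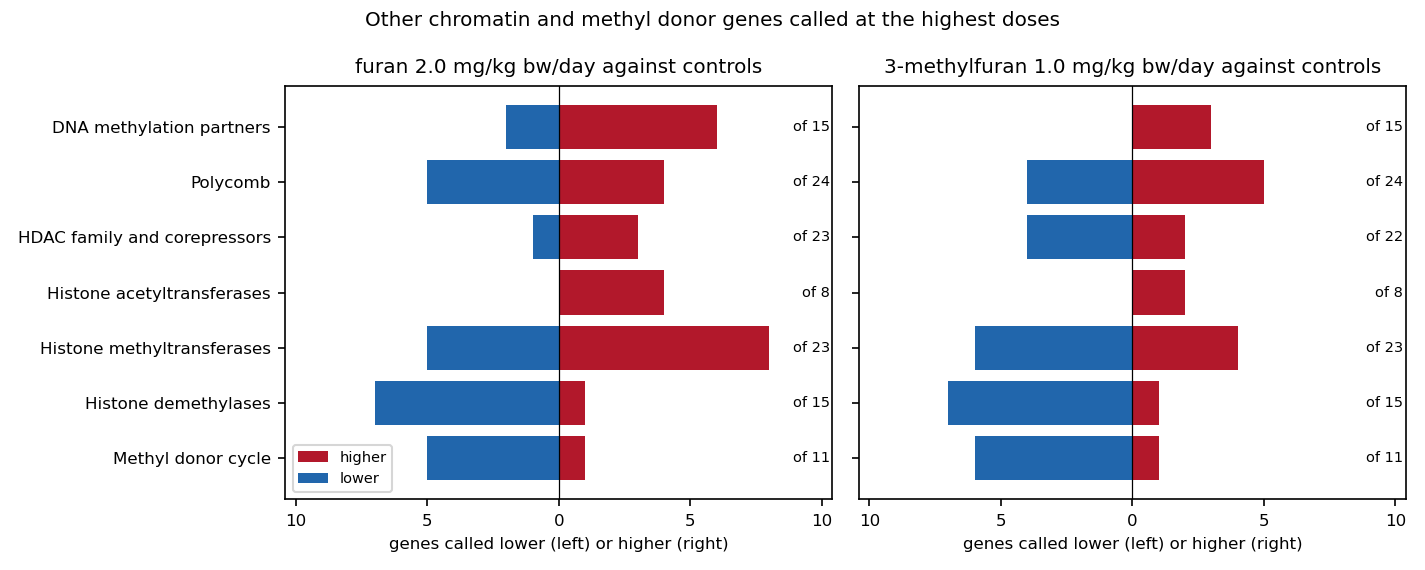
Bars give the number of genes of each of 7 chromatin lists called lower (left) or higher (right) at furan 2.0 and at 3-methylfuran 1.0 against controls under TMM scaling, with the number tested at the edge of each panel. Histone demethylases have 7 genes lower and 1 higher in both panels, which under library size alone turns to 8 higher and 0 lower, and 6 higher and 1 lower, and no acetyltransferase is lower under either scaling. Of all genes called under library size alone, 91.8% and 86.8% were higher.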

How the data were processed

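The authors deposited integer read counts per gene and sequencing run (STAR 2.7.1a, featureCounts 2.0.0, DESeq2 1.26.0 and Rnor_6.0 are named in the submitters' processing notes). For annotation release and strand setting, the value is not given in the sources used here. In the authors' deposited comparison tables stand, for furan, a signed fold change in which a decrease is a negative reciprocal (a unit other than a plain ratio), for 3-methylfuran a plain fold or ratio, and adjusted p-values for every dose. They supplied symbols and the values credited to them. The array data of the series were not analysed here.

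Counts of the 2 runs per furan rat and 3 runs per 3-methylfuran rat were summed. Per the labels' protocols, furan libraries used the Illumina Stranded mRNA prep and 3-methylfuran libraries the TruSeq Stranded mRNA kit. Controls were assigned to an experiment by title number, and replicates are separate rats. The 10 genes and all lists were chosen with earlier results of these data known. Of 242 listed symbols, 17 were unmatched or split over IDs.

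Genes passed filterByExpr (minimum count 10) and were fitted in R 4.3.3 with edgeR 4.0.16 (TMM, robust quasi-likelihood F test), 1 fit per experiment with all its groups, or 1 of all 70 rats in 9 groups for differences between compounds. Benjamini-Hochberg adjustment ran over all genes tested (12727 furan, 11930 3-methylfuran, 12941 for the difference). SE is the log2 change divided by the square root of F. The score uses log2 CPM with a prior count of 2, and its genes were left out of the adjustment of slopes. Named were the 10 members, at most 2 called genes per direction, chromatin list and highest dose (by size of change), Mki67, Top2a, Mcm3 and Pcna, and the 3 genes most like each member called in the same direction at both highest doses. Rbbp4 and Kdm6a were named outside this rule, after their values were seen. The fits were tested on simulated counts. Alternatives were median-of-ratios size factors, library size alone, no filter, DESeq2 1.42.0, limma voom 3.58.1, only the groups compared, only run 1, each rat left out, the score in the fit and other scores.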

Additional observations from a re-analysis of the deposited data

Results flagged for a closer look

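In 4 of 81 groups of a member checked, 1 rat lay far from the rest (gap to the next rat divided by the range of the group, above Dixon's limit), where chance gives about 1 in 20. The highest rat of Dnmt3b at 3-methylfuran 0.02 had 9.30 CPM with the next at 8.12 (0.549). The highest rat of Tet2 at furan 0.5 had 18.6 CPM with the next at 14.7 (0.574). The highest rat of Tet3 at furan 0.12 had 14.7 CPM with the next at 11.8 (0.597). The highest rat of Hdac1 at 3-methylfuran 1.0 had 36.1 CPM with the next at 33.2 (0.552).

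The effects of furan 2.0 and 3-methylfuran 1.0 differed for Dnmt3a by -0.42 and for Dnmt3b by -0.6 on the log2 scale (edgeR adjusted p = 0.0222 and 0.0253). The difference in Dnmt3b stands beside furan controls that were higher than the controls of the other experiment, 9.03 beside 6.39 CPM. Compound, dose and library kit cannot be told apart here.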

How the results depend on the processing

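Of 113 counts of members called under alternatives, 101 stayed within 1.5 times of the reported count and 12 moved. Under library size alone the count became 0 at furan 0.5 (428 of 12727 genes called) and 6 for furan 2.0 against 0.5 (8057 genes). It became 4 for the furan slope (3995 of 12690 genes) and 0 for the difference between compounds (1721 of 12941 genes). Under that scaling Dnmt3a (0.35), Tet2 (0.095) and Tet3 (0.11) at furan 2.0 and Hdac2 (0.0055) for furan 2.0 against 0.5 changed sign, since it moves the bulk of genes up. DESeq2 called 1 at furan 0.12 (368 of 12727 genes) and 2 at furan 0.5 (596 genes). A fit of only the groups compared called 0 at furan 0.5 (299 of 11942 genes). Run 1 alone called 1 at furan 0.12 (222 of 11722 genes), 3 at 3-methylfuran 1.0 (3825 of 10407 genes) and 3 for 1.0 against 0.075 (3070 genes). It called 0 for the 3-methylfuran slope (21 of 10379 genes) and the difference between compounds (494 of 11792 genes). In run 1 of the 3-methylfuran experiment 8 members had counts enough to be tested. Uhrf1, with the fewest counts of the members tested from all runs, was left out. Its rise and slope there were thus not checked in run 1. With the score in the fit Ezh2 at furan 2.0 was -0.16. Leaving out each rat gave 6 to 7 members at furan 2.0 and 6 to 6 at 3-methylfuran 1.0, and Hdac1 at furan 2.0 ranged from 0.12 to 0.19. A further count covers 47 results, the member pairs called somewhere and the Hdac1 to Hdac2 ratios, called or not. For the ratios a call was an adjusted p under 0.05 in an exact permutation test, on a measure chosen after the values were seen. Of the values of these 47 results under alternatives, 487 were alike in direction and call, 30 lost and 14 gained the call and 5 changed sign. DESeq2 was not run for slopes or for the difference between compounds. Replicates share no numbers across groups. No paired analysis was possible because each rat number occurs in 1 group. Depth limits Uhrf1 and Tet1, with 0 to 21 and 0 to 3 counts per control rat.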
